A study of Mus musculus with 6 samples.

Results

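The genes described here are 10 of the 21929 in the deposited table: the alpha-tubulin isotype genes Tuba1a, Tuba1b and Tuba1c, the beta-tubulin isotype genes Tubb2a, Tubb2b, Tubb3, Tubb4b, Tubb5 and Tubb6, and Stmn1, the gene of stathmin 1. They were chosen by symbol. The measured value in the rule was the mean FPKM over the 6 libraries, meant to pick between rows of the same symbol, and since each symbol stood in 1 row it selected none. The symbols themselves had been proposed with the group difference of these libraries in view. The RNA came from L929, an established mouse fibroblast line, kept in co-culture with tumour cells. In 3 libraries the L929 cells were Biotin-positive, labelled as having interacted with the tumour cells (named MFCSTCL in the labels), and in 3 they were Biotin-negative, labelled as not having done so. Both groups share the co-culture, the single cell line and 1 batch label, and no group of L929 cells grown alone is part of the comparison. The labels do not tell whether the replicates were cultured separately, and the p-values thus speak of the variation from library to library, which may be technical.

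Microtubules are hollow polymers of alpha- and beta-tubulin dimers that organise cell shape, vesicle traffic and the mitotic spindle. Mammals hold several genes for each chain, and their proteins, called isotypes, differ mostly in an acidic tail at the carboxyl end. Stathmin 1 binds tubulin dimers and keeps them out of the polymer until kinases phosphorylate it. Cells also adjust tubulin mRNA to the pool of free dimers: the protein TTC5 reads the first residues of a tubulin chain as it leaves the ribosome and, through SCAPER, brings in the CCR4-NOT deadenylase, which leads to decay of the message.

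The start of the coding sequence is shown first because TTC5 reads the residues it encodes. The 30 bases are the first coding bases of the longest protein-coding GENCODE vM21 transcript, 5′ to 3′, with the first 4 codons in capitals.
Tuba1a: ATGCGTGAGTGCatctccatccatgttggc
Tuba1b: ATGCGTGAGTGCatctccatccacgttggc
Tuba1c: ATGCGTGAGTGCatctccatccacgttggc
Tubb2a: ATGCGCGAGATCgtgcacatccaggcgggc
Tubb2b: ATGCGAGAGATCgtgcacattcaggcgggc
Tubb3: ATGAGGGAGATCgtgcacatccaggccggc
Tubb4b: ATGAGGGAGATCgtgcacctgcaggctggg
Tubb5: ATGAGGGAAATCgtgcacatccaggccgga
Stmn1: ATGGCATCTTCTgatattcaggtgaaagag
The 3 alpha genes had the same 12 bases in capitals. Stmn1, which encodes no tubulin, had 4 of these 12 bases in common with Tuba1b.

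The last 60 coding bases, stop codon included, encode the tails that set the isotypes apart, and are shown for 4 beta genes. Capitals mark bases that differ from Tubb5, or stand opposite a gap in Tubb5, in a global alignment of the coding sequences.
Tubb5: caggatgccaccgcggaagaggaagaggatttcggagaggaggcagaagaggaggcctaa
Tubb4b: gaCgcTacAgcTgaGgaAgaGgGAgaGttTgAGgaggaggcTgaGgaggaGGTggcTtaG
Tubb2a: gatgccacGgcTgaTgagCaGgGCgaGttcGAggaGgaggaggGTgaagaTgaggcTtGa
Tubb3: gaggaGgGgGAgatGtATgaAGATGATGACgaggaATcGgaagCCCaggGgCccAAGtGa
Of the 60 bases of Tubb3, 29 were in capitals. Some of them may have no counterpart in Tubb5, as the Tubb3 coding sequence is longer (1353 against 1335 bases).

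Shared sequence limits how far the isotypes can be told apart. Coding sequences were 97.1 to 98.3% identical among the 3 alpha genes and 80.2 to 96.5% among the 6 beta genes, where the highest value belonged to Tubb2a and Tubb2b. Of all windows of 100 bases in the transcript, 65.8% of those of Tuba1a, 73.0% of those of Tuba1b and 53.4% of those of Tuba1c also occurred, letter for letter, in an annotated transcript of another gene. The share was 36.9% for Tubb2a, 27.7% for Tubb2b and 30.6% for Tubb4b, mostly with the pseudogene Tubb4b-ps1, and 26.1% for Stmn1, with the predicted gene Gm11223. Tubb3, Tubb5 and Tubb6 had 0 such windows. How reads that match several genes were treated is not given in the sources used here. The levels of the alpha isotypes and of Tubb2a and Tubb2b are thus uncertain one by one. Those of Tubb4b and Stmn1 are uncertain to the extent of their shared windows.

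All values below are FPKM, a fragment count divided by the length of the gene and by the size of the library, which can be compared between genes. Libraries are given in the order of their replicate numbers, and means carry the SD with n = 3 libraries a group. A log2 difference is Biotin-positive minus Biotin-negative on log2(FPKM + 1), with adjusted p from limma over 11029 tested genes. Genes were called at an adjusted p under 0.05, and "rose" and "fell" mean called higher and lower in Biotin-positive cells. Across all tested genes 37.8% were called higher and 36.1% lower, and the median log2 difference was 0.0099. Sequencing depth is unknown, as FPKM carry no read totals, and the FPKM of a library summed to between 337771 and 356681. Of the 12 fibroblast markers, 9 were tested; 7 fell, Vim and S100a4 rose, and Thy1, Lum and Dcn never reached 1 FPKM. Of 15 epithelial markers 13 never reached 1 FPKM in any library, Epcam and Cdh1 among them. Krt7 went from 0.236 ± 0.0759 to 24.7 ± 1.18 FPKM and Krt8 from 0.0362 ± 0.0153 to 20.8 ± 0.355 FPKM. Krt7 and Krt8 reached 1 FPKM only in Biotin-positive libraries, so they are described by their values and their calls support nothing. The summed FPKM of the epithelial list went from 0.684 to 0.818 in Biotin-negative libraries to 45.5 to 47.8 in Biotin-positive ones, and its part in the results below was not tested.

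Tubulin messages were higher in Biotin-positive cells in every isotype of the group, and stathmin 1 was not called. Of the 10 genes, all of which were tested, 9 rose and 0 fell, beside the 37.8% of all tested genes called higher. Tubb3 passed the minimum of 1 FPKM in 3 libraries only through the Biotin-positive group, so it is described by its values and its call supports nothing. In the same 9 genes every Biotin-positive library lay above every Biotin-negative one, which held for 39.1% of all tested genes. These genes were proposed with results of these data known, so the counts and p-values describe them and are not independent evidence.

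**Figure D1:**
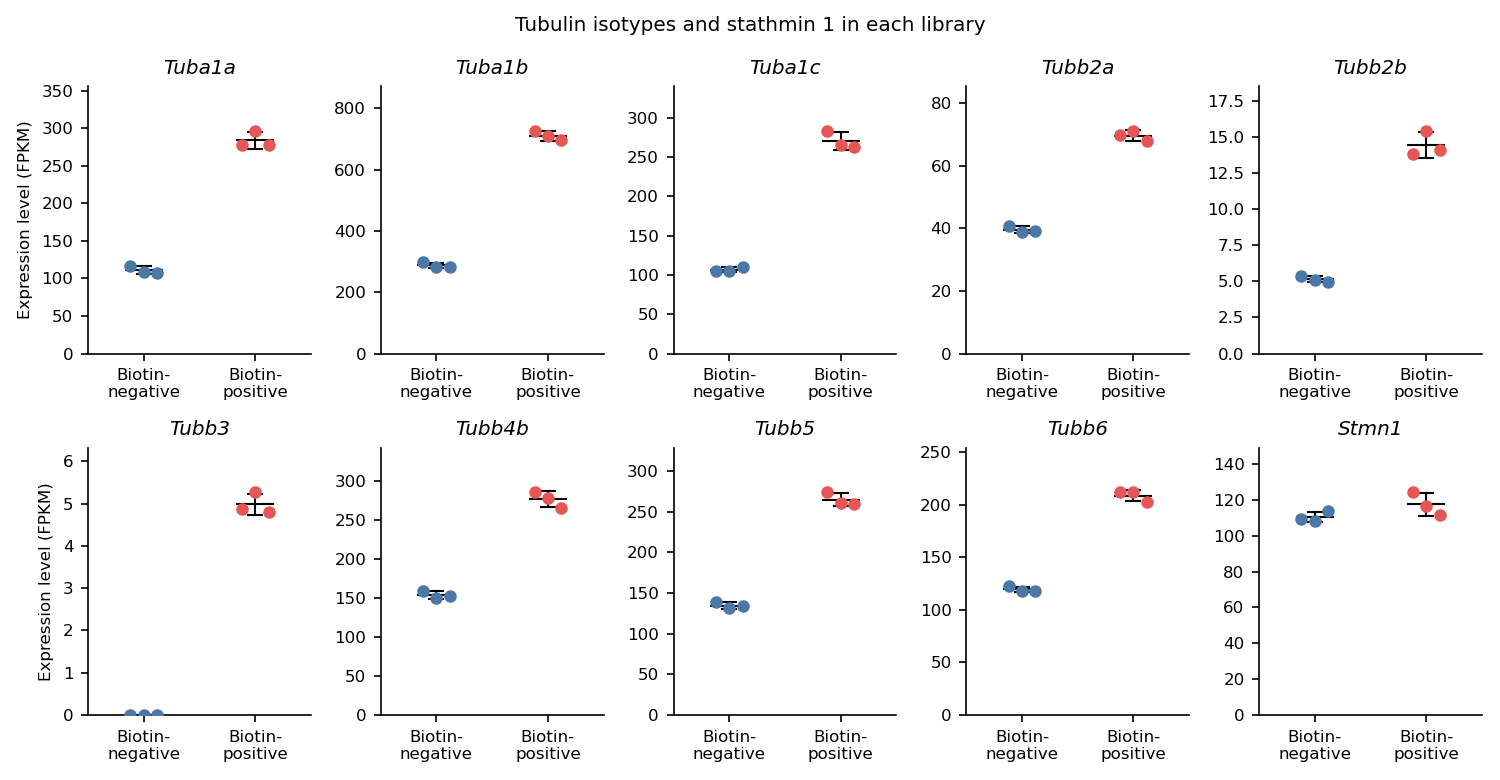
Expression level in FPKM (vertical axes, each from 0) of the 10 genes in the 3 Biotin-negative (blue) and 3 Biotin-positive (red) libraries; points are libraries, bars the mean and SD. The groups stand apart for the 9 tubulin genes and overlap for Stmn1, and Tubb3 is listed at 0 in the Biotin-negative libraries.

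Tuba1b, the most abundant of the isotype messages in both groups, was at 297, 282 and 282 FPKM in the Biotin-negative libraries against 727, 709.5 and 695 FPKM in Biotin-positive cells. The groups did not overlap. The mean went from 287 ± 8.75 to 710.4 ± 16.1 FPKM, a ratio of 2.48 (log2 difference 1.30, SE 0.0327, limma adjusted p = 1.00e-08). By mean level Tuba1b moved from rank 156 to rank 54 of all 21929 genes.

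Tuba1a, known as the main alpha isotype of developing neurons, was at 117, 108 and 107 FPKM against 278, 297 and 277 FPKM. Its ratio of means was 2.56 (log2 difference 1.35, SE 0.0431, limma adjusted p = 3.25e-08). Tuba1c was at 104, 104 and 109.9 FPKM against 283, 265 and 263 FPKM, a ratio of 2.54 (log2 difference 1.34, SE 0.0384, limma adjusted p = 1.95e-08). The 3 alpha genes thus had log2 differences within 0.05 of each other, in libraries that did not overlap between the groups. Since they share much sequence and the handling of shared reads is not given, these differences are uncertain one by one.

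These 3 genes lie side by side on chromosome 15, between 98931425 and 99038110 on GRCm38. The table held 11 other genes within 100 kb of them, of which 7 were tested: 2 rose, 2 fell and 3 did not pass. Their log2 differences ran from -0.57 for Lmbr1l to 0.88 for Troap, below those of the alpha genes. Over all tested genes 37.8% rose and 36.1% fell. Gm49450, a gene model that overlaps Tuba1a and Tuba1b, was at 1.46 FPKM in Biotin-positive replicate 1 and listed at 0 in the other libraries of both groups. Neighbours were named after their values were seen.

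Among the beta isotypes, Tubb4b and Tubb5 were the most abundant. Tubb5, the broadly expressed class I isotype, was at 139, 131 and 134 FPKM in Biotin-negative cells against 274, 261 and 259 FPKM in Biotin-positive cells, a ratio of 1.97 (log2 difference 0.97, SE 0.0341, limma adjusted p = 5.15e-08). Tubb4b, also widely expressed, was at 159, 150.1 and 152 FPKM against 286, 278 and 265 FPKM, a ratio of 1.80 (log2 difference 0.84, SE 0.0371, limma adjusted p = 1.78e-07). Both rose, with no overlap between the groups.

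Tubb6, the class V isotype on chromosome 18, was at 123, 118 and 118 FPKM against 212, 212 and 202 FPKM. Its ratio was 1.75 (log2 difference 0.80, SE 0.0317, limma adjusted p = 9.92e-08). Tubb5 and Tubb6 are isotypes without a shared window of 100 bases, so reads of that length could be told apart between them and other genes.

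The class II pair on chromosome 13, 48741 bases apart, differed in level and in ratio. Tubb2a was at 40.8, 38.8 and 39.2 FPKM against 69.8, 71.3 and 67.9 FPKM, a ratio of 1.76 (log2 difference 0.80, SE 0.034, limma adjusted p = 1.45e-07). Tubb2b was lower, at 5.40, 5.10 and 4.96 FPKM against 13.8, 15.4 and 14.1 FPKM, a ratio of 2.80 (log2 difference 1.33, SE 0.058, limma adjusted p = 1.69e-07). Both rose without overlap, and the difference between the 2 ratios was not tested as such.

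Tubb3, the class III isotype best known as a marker of neurons, was at 4.88, 5.28 and 4.80 FPKM in Biotin-positive cells, whereas each Biotin-negative library listed it at 0. No fold is given against a group listed at 0. Its log2 difference depends on the pseudocount, at 2.58 with 1 FPKM, 3.45 with 0.5 and 5.67 with 0.1. Of 12 neuronal markers, 6 were listed at 0 in every library, Rbfox3, Dcx and Snap25 among them, and 1 was tested. This was Gap43, a growth cone gene, at 0.264 ± 0.104 FPKM in Biotin-negative and 1.72 ± 0.214 FPKM in Biotin-positive cells. Gap43 reached 1 FPKM only in Biotin-positive libraries, so its call supports nothing. The summed FPKM of that list was 0.484 to 0.708 in Biotin-negative and 2.26 to 2.54 in Biotin-positive libraries, and its part in the Tubb3 value was not tested. The gene Mc1r, which ends 680 bases before Tubb3, was at means of 0.0459 and 0.0803 FPKM.

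Stmn1 was at 109, 108 and 113 FPKM in Biotin-negative cells against 124, 116 and 112 FPKM in Biotin-positive cells. The groups overlapped. The log2 difference was 0.09 (SE 0.0425, limma adjusted p = 0.0909), and its 95% interval ran from -0.0094 to 0.19, or from 0.993-fold to 1.14-fold on the FPKM + 1 scale. The interval leaves out a change of the size seen in the tubulin genes. Without Biotin-positive replicate 3 Stmn1 was called higher (log2 difference 0.12, limma adjusted p = 0.0276), and over all 16 alternatives its adjusted p ran from 0.0276 to 0.54. Under quantile normalization the sign turned (log2 difference -0.044, adjusted p = 0.34).

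**Figure D2:**
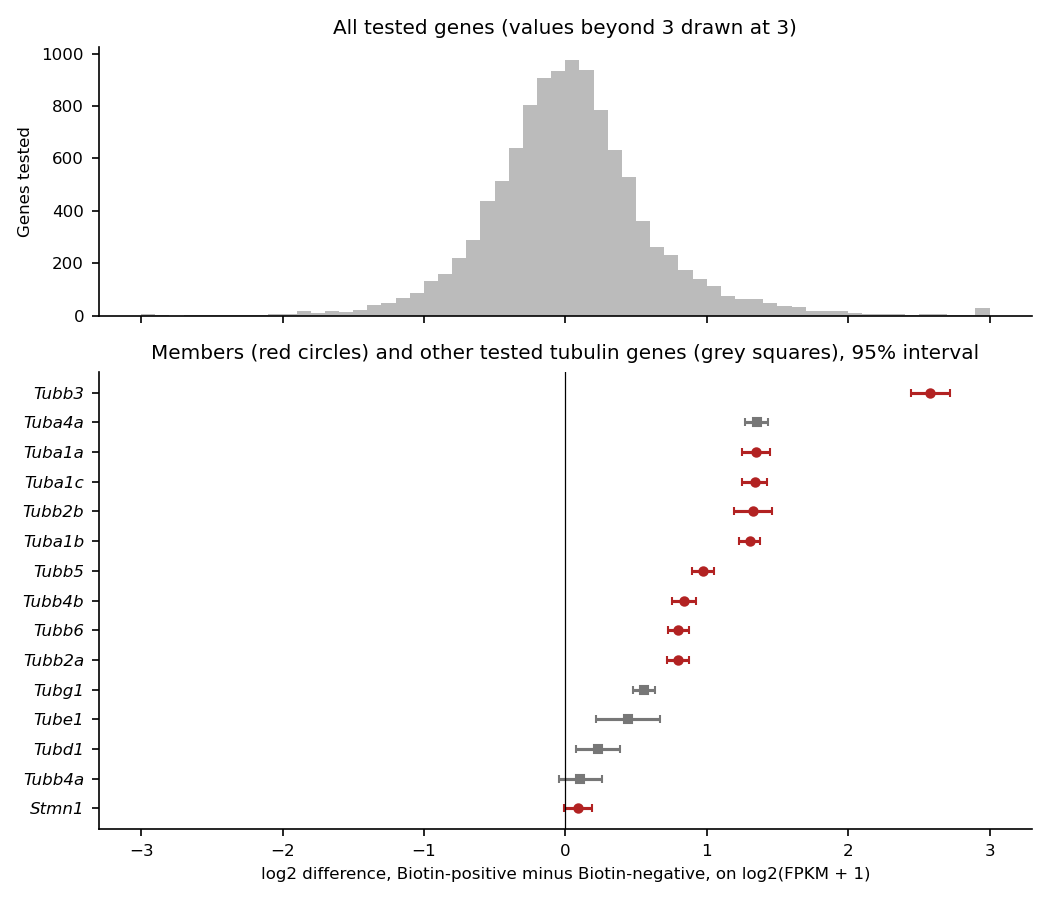
Log2 difference on log2(FPKM + 1), horizontal axis: above, a histogram of all 11029 tested genes; below, the 10 genes (red circles) and the other tested tubulin genes (grey squares) with the 95% interval of limma. The alpha isotypes lie between 1.30 and 1.35, and the interval of Stmn1 reaches below 0.

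In the Biotin-negative group the order of levels was Tuba1b, Tubb4b, Tubb5, Tubb6, Tuba1a, Stmn1, Tuba1c, Tubb2a, Tubb2b and Tubb3. The libraries of Tuba1a, Stmn1 and Tuba1c overlapped with their neighbours in that order, and those of the other neighbours did not. In the Biotin-positive group Tuba1a, Tubb4b, Tuba1c and Tubb5 overlapped in a chain from 284 ± 11.2 down to 265 ± 7.96 FPKM, and Stmn1 came after all isotypes other than Tubb2a, Tubb2b and Tubb3.

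Sums over the isotypes depend less than single levels on which isotype of a chain a shared read is assigned to. They still move with it, since FPKM divide by gene lengths that differ, and they do not cover sequence shared with other genes: 38.4% of the windows of Tuba1a and 52.3% of those of Tuba1b were shared with other genes of the group of 10, of the 65.8% and 73.0% shared in all. The 3 alpha genes summed to 518, 495 and 498 FPKM in the Biotin-negative libraries and to 1288, 1271 and 1234 FPKM in the Biotin-positive ones, a ratio of 2.51. The 6 beta genes summed to 467, 443 and 448 FPKM against 860, 843 and 814 FPKM, a ratio of 1.85. The alpha to beta ratio went from 1.11 ± 0.00478 to 1.51 ± 0.0094, so the alpha messages were higher relative to the beta messages in all 3 Biotin-positive libraries. Stathmin 1 stood at 11.1, 11.5 and 11.99 FPKM per 100 FPKM of summed tubulin in the Biotin-negative libraries and at 5.79, 5.51 and 5.44 in the Biotin-positive ones, a ratio of 0.484. For each of these 4 quantities an exact two-sided permutation test gave p = 0.1, the smallest that 3 against 3 libraries allow, and 0.117 after Benjamini-Hochberg adjustment over 14 quantities. The 9 tubulin genes together held 0.282 ± 0.00646% of all FPKM in Biotin-negative and 0.594 ± 0.00832% in Biotin-positive cells.

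**Figure D3:**
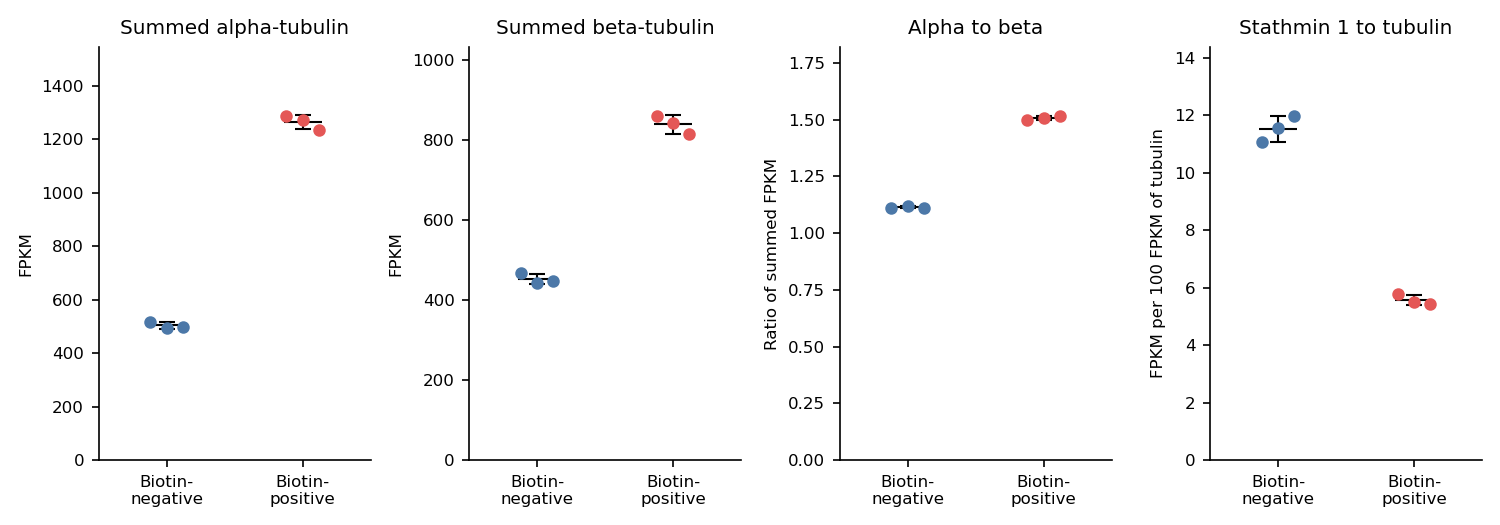
Summed alpha- and beta-tubulin FPKM, the alpha to beta ratio, and Stmn1 FPKM per 100 FPKM of summed tubulin (vertical axes from 0) in the Biotin-negative (blue) and Biotin-positive (red) libraries, with mean and SD. In each panel the 3 libraries of one group stand apart from those of the other, as in the alpha to beta ratio of 1.11 against 1.51.

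Counted in percentage points, the mix of isotypes within each chain moved little beside these sums. The shares of the alpha isotypes and of Tubb2a and Tubb2b depend on how shared reads were assigned, which is not given. Tuba1b held 57.0 ± 0.418% of the summed alpha FPKM in Biotin-negative and 56.2 ± 0.312% in Biotin-positive cells, Tuba1a 22.0 ± 0.555% and 22.4 ± 0.892%, and Tuba1c 21.1 ± 0.967% and 21.4 ± 0.595%. The libraries overlapped between the groups for Tuba1a and Tuba1c (exact permutation p = 0.5 and 0.8), and the size of both shifts rests on single libraries. Within the beta chain Tubb5 went from 29.7 ± 0.118% to 31.6 ± 0.537% and Tubb2b from 1.14 ± 0.0277% to 1.72 ± 0.114%. Tubb4b went from 34.0 ± 0.124% to 33.0 ± 0.314%, Tubb6 from 26.4 ± 0.166% to 24.9 ± 0.262% and Tubb2a from 8.75 ± 0.0192% to 8.30 ± 0.167%. Tubb3 held 0.567, 0.626 and 0.589% of the beta sum in the Biotin-positive libraries. The groups did not overlap for any of the 6 beta shares or for Tuba1b (exact permutation p = 0.1 each, the smallest possible). The largest of these shifts, that of Tubb5, was 1.84 percentage points. Relative to its start the share of Tubb2b moved more, at a ratio of 1.51, and that of Tubb3 started from 0.

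**Figure D4:**
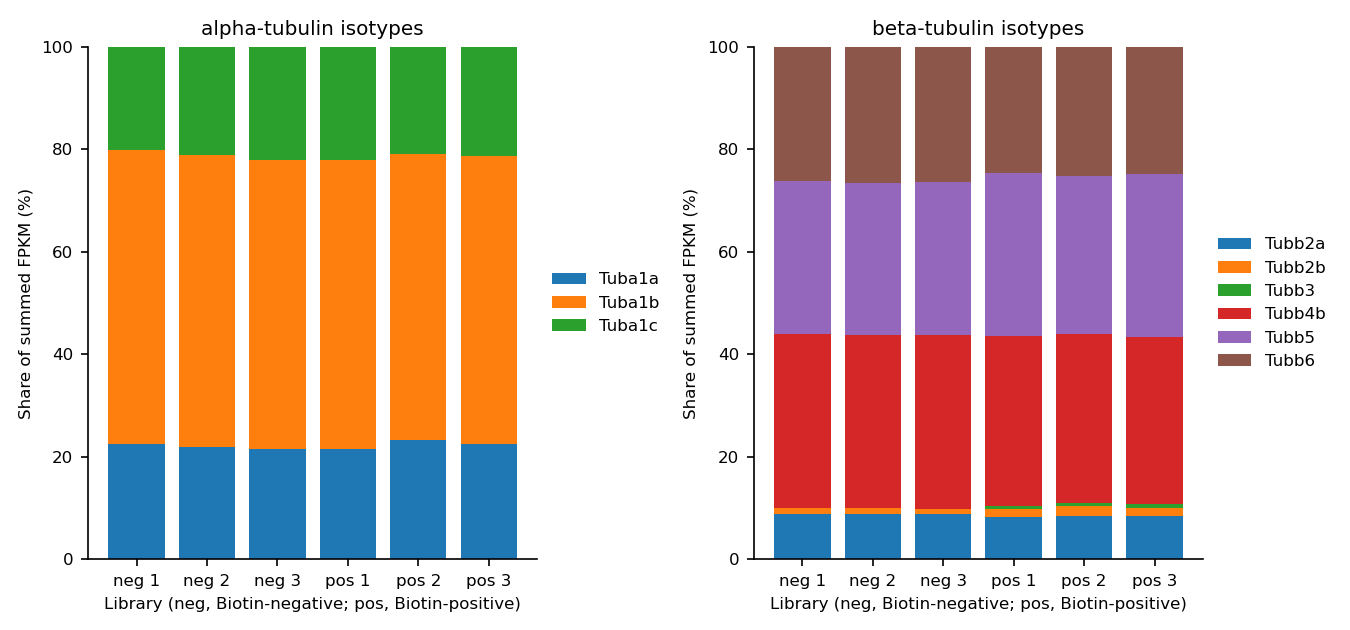
Share of the summed FPKM (vertical axis, percent, from 0 to 100) held by each alpha isotype, left, and each beta isotype, right, in each library (neg, Biotin-negative; pos, Biotin-positive). Tuba1b fills between 55.8 and 57.3% of the alpha bars in every library, and the thin Tubb3 layer is seen only in the Biotin-positive bars.

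Of the 11 other tubulin genes, 5 were tested, of which 4 rose, 0 fell and 1 did not pass. The median log2 difference was 0.44, against 0.0099 for all tested genes, of which 37.8% rose and 36.1% fell. Tuba4a, an alpha isotype encoded on chromosome 1, rose from 27.3 ± 0.709 to 71.3 ± 1.99 FPKM, a ratio of 2.61. A share of 46.7% of its windows of 100 bases lies in transcripts of the neighbouring gene Stk16, so its level is uncertain. Tubg1, gamma-tubulin, which seeds new microtubules, rose from 24.3 ± 0.417 to 36.3 ± 0.720 FPKM, a ratio of 1.49. The other genes that rose were those of delta- and epsilon-tubulin, Tubd1 from 2.74 to 3.40 FPKM and Tube1 from 2.54 to 3.79 FPKM, and Tubb4a (2.13 and 2.36 FPKM) did not pass. Of the other stathmin genes, Stmn3 was listed at 0 throughout, and Stmn2 and Stmn4 stayed below 0.2 FPKM in every library.

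Folding of new tubulin runs through prefoldin, the CCT chaperonin ring and the tubulin cofactors. Of the 21 genes of this list 14 rose and 4 fell, beside 37.8% and 36.1% of all tested genes. The other 3 did not pass, and the list median was a log2 difference of 0.25. The CCT subunit genes Cct6a (98.6 ± 1.02 to 165 ± 4.77 FPKM) and Cct2 (159.9 ± 3.64 to 262 ± 3.84 FPKM) rose. Tbcc, the cofactor gene whose product acts in the last folding step, fell from 15.5 ± 0.192 to 8.99 ± 1.09 FPKM. The cofactor gene Tbce fell as well, from 39.5 to 25.5 FPKM, and was named after its value was seen.

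In the list of tubulin mRNA autoregulation 9 of 12 genes rose and 1 fell, beside 37.8% and 36.1% of all tested genes. The other 2 did not pass (list median 0.30). Cnot9, a CCR4-NOT subunit gene, rose from 15.2 ± 0.207 to 33.9 ± 0.677 FPKM, Cnot6, which encodes a deadenylase of the complex, from 17.7 ± 1.02 to 25.3 ± 1.21 FPKM, and Cnot11, the subunit through which SCAPER binds, from 10.2 ± 0.215 to 14.4 ± 0.793 FPKM. The gene that fell was Ttc5, from 13.6 to 10.3 FPKM (log2 difference -0.36, limma adjusted p = 0.000728), and Scaper rose from 1.61 to 2.24 FPKM.

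Enzymes that modify tubulin went both ways. Of 28 listed, 27 were in the table and 18 were tested, of which 5 rose, 7 fell and 6 did not pass (median 0.02). Tpgs1, a subunit of a polyglutamylase complex, fell from 22.8 ± 0.685 to 14.1 ± 0.734 FPKM, the polyglutamylase gene Ttll4 from 13.6 ± 0.390 to 8.73 ± 0.611 FPKM and the deglutamylase gene Agbl5 from 9.46 ± 0.468 to 6.21 ± 0.417 FPKM. The counts stand beside 37.8% higher and 36.1% lower among all tested genes. Of the other deglutamylase genes tested, Agbl3 rose from 1.99 to 3.61 FPKM and Agtpbp1 fell from 7.53 to 5.12 FPKM.

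Proteins that bind the lattice or the growing end were also split, with 10 rises, 7 falls and 3 not passing among 20 tested of 27 (median 0.10). Map2, among the rises, reached 1 FPKM only in Biotin-positive libraries, so its call supports nothing. Map6, which stabilises microtubules, rose from 3.49 ± 0.570 to 12.7 ± 0.440 FPKM, the plus-end gene Clip1 from 8.22 ± 0.512 to 15.5 ± 0.142 FPKM and Map7d1 from 19.1 ± 0.525 to 31.9 ± 1.53 FPKM. Of 8 tested genes for severing and depolymerising proteins, 3 rose, 2 fell and 3 did not pass (median 0.06). Both sets of counts stand beside 37.8% higher and 36.1% lower among all tested genes. Kif2c, a kinesin that takes tubulin off microtubule ends, rose from 7.62 ± 0.153 to 22.1 ± 0.430 FPKM and Fignl1 from 10.9 ± 0.315 to 19.5 ± 0.838 FPKM.

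Genes of nucleation, the gamma-tubulin ring and the augmin complex, held 14 rises, 2 falls and 4 not passing among 20 (median 0.45). The shares of all tested genes were 37.8% for rises and 36.1% for falls. Tpx2, a spindle assembly factor, rose from 24.9 ± 1.15 to 58.5 ± 2.61 FPKM. The augmin subunit genes Haus1 (7.81 ± 0.637 to 15.6 ± 2.85 FPKM) and Haus5 (6.76 ± 1.26 to 13.1 ± 2.23 FPKM) rose too.

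Kinases known to phosphorylate stathmin held 5 rises, 1 fall and 2 not passing among 8 tested of 10 (median 0.20). This count, and that of the cell cycle markers below, stand beside 37.8% higher and 36.1% lower among all tested genes. The mitotic kinase genes Cdk1 (6.76 ± 0.396 to 22.3 ± 0.888 FPKM) and Aurkb (23.5 ± 1.93 to 59.5 ± 2.85 FPKM) rose, as did Uhmk1 (4.80 ± 0.104 to 10.1 ± 0.322 FPKM). All 10 cell cycle markers rose, at ratios from 1.65 for Mcm5 to 3.76 for Ccnb1, in the same libraries in which Stmn1 was not called. Ccnb1 went from 20.0 ± 0.854 to 75.1 ± 2.90 FPKM and Ccna2 from 20.6 ± 2.30 to 72.6 ± 0.857 FPKM. Their part in the tubulin values was not tested.

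**Figure D5:**
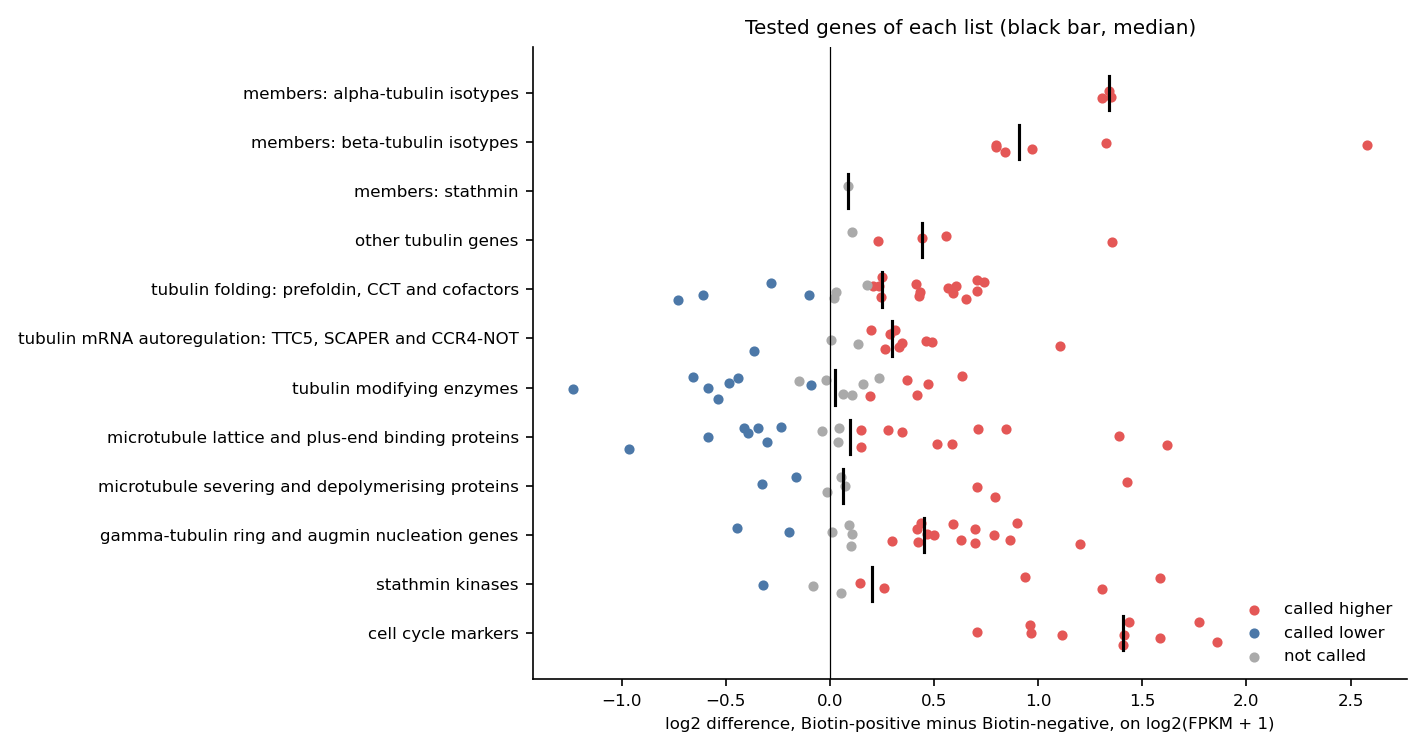
Log2 difference on log2(FPKM + 1) (horizontal axis) of the tested genes of each list (vertical axis), colored by limma call; black bars are list medians and vertical scatter carries no value. The cell cycle markers and the alpha isotypes have medians of 1.41 and 1.34, and the tubulin modifying enzymes one of 0.02.

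The genes closest to a member were those with the smallest Euclidean distance of the log2(FPKM + 1) profile over the 6 libraries, taken as the difference from the Biotin-negative mean, among 8312 tested genes of at least 5 FPKM. For Tubb5 these were Mov10, an RNA helicase gene (17.9 ± 0.503 to 36.0 ± 0.894 FPKM, distance 0.0356), the proliferation marker gene Mki67 (19.9 ± 0.672 to 39.8 ± 1.04 FPKM, distance 0.0382) and the myosin gene Myo1c (42.3 ± 0.514 to 82.7 ± 2.13 FPKM, distance 0.0517). For Stmn1 they were the ribosomal protein gene Rpl7 (826 ± 23.8 and 880 ± 39.0 FPKM, distance 0.0445), the exosome subunit gene Exosc5 (17.4 ± 0.505 and 18.5 ± 1.21 FPKM, distance 0.0538) and Aurkaip1 (42.5 ± 0.526 and 45.4 ± 1.85 FPKM, distance 0.0541). Such distances over 6 libraries in 2 groups mostly reflect the size of the group difference.

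Promoters were read because the isotype genes moved together. RefSeq windows on GRCm38.p6 were at hand for 7 of the 10 genes, and the 250 bases before the RefSeq start were searched on both strands. For Tuba1a, Tuba1b and Tubb3 much of the window lay inside the gene span of the deposited table, and for Tubb5 its edge did. Motif counts of these genes thus depend on the start used. A CCAAT box, written CCAAT or ATTGG, stood in 5 of the 7, Tuba1a, Tuba1c, Tubb3, Tubb4b and Tubb5, and in 33.8% of all 32851 promoter windows. The CHR motif of cell cycle genes, TTTGAA or TTCAAA, stood in 1 of the 7, Tubb4b, and in 16.0% of all. A GC box, GGGCGG or CCGCCC, stood in 5 of the 7 and in 32.7% of all, and a TATA box, TATAAA or TTTATA, in 1 of the 7 and in 12.4% of all. Tubb4b had the most CCAAT boxes, 5, and Tuba1c had 1. Tuba1b, the most abundant message, had 0 in the window before its RefSeq start. The Tubb4b window at chr2:25224703-25224952 and the Tuba1c window at chr15:99029641-99029890 are shown with their CCAAT boxes in capitals, Tubb4b from the minus strand and Tuba1c from the plus strand.
Tubb4b: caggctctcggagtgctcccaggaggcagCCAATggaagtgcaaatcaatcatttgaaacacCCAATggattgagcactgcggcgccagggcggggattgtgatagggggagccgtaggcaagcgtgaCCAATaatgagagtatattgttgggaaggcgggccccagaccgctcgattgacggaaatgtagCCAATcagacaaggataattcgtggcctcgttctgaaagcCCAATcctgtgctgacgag
Tuba1c: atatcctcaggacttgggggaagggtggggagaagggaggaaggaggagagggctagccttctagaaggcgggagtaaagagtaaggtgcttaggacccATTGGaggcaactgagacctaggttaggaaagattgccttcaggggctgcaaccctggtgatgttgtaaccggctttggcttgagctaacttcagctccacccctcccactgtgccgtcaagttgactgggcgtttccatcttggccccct
A match describes these letters and does not show that a factor binds there.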

How the data were processed

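The authors deposited 1 table of FPKM values with 1 column per library. Per the submitters' processing notes, cutadapt 1.9.1, HISAT2 2.2.1 and HTSeq 0.6.1 were used. The program that made the FPKM, the strandedness and the handling of reads that match several genes are not given in the sources used here. The notes name GRCm39, but 99.1% of the 21816 genes shared with GENCODE vM21 had the start and end of that GRCm38 annotation in the deposited table, so coordinates are given as GRCm38.

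Values were taken as log2(FPKM + 1). A gene was tested if 3 or more libraries reached 1 FPKM, which 11029 genes did. The test was limma 3.58.1 in R 4.3.3 (trended eBayes, two-sided). P-values were adjusted by Benjamini and Hochberg over these genes, with calls under 0.05. The procedure was tested on simulated data. Sums, shares and ratios were compared with exact permutation tests in scipy 1.17.1, and coding sequences were aligned with Biopython 1.88. Replicate numbers were not used as pairs.

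The genes and all lists were chosen with earlier results of these data known. From each list of other genes the text names up to 3 called genes with the largest log2 difference, if the higher of the group means reached 5 FPKM, all genes of a list of 3, and the 3 genes with the profile closest to Stmn1 and to Tubb5. A gene that this rule takes is not reported here. Where a list held no called gene of 5 FPKM, its tested genes with the highest means were named. Genes printed with no SD, and Lyz2, were picked with their values known. Of 8 immune markers, 2 were tested: Lyz2 rose (1.36 ± 0.164 to 2.42 ± 0.199 FPKM) and Cd68 fell (8.59 ± 0.864 to 7.13 ± 0.805 FPKM).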

Additional observations from a re-analysis of the deposited data

How the results depend on the processing

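The settings varied were the pseudocount (0.1 or 0.5), the filter (none, or 5 FPKM), the scaling (median of ratios, quantiles, or the same sum for each library), the eBayes prior (untrended, or robust), the replicate block, each library left out in turn and, for sums and shares, the inclusion of all alpha- and beta-tubulin genes of the table. All 140 log2 differences of the 9 tubulin genes over 16 settings kept their sign and their call; Tubb3, whose log2 difference ran from 2.55 to 5.67, the highest at a pseudocount of 0.1, was not tested at the minimum of 5 FPKM or without any 1 of the Biotin-positive libraries. Stmn1 turned to -0.0442 under quantile normalization. With an equal sum per library the ratios were 2.40 for summed alpha- and 1.78 for summed beta-tubulin. The numbers of genes called higher and lower over the whole table were 4168 and 3985, and 3583 to 4044 and 3585 to 3808 with a library left out. More genes were lower than higher with an equal sum per library (3685 higher, 4510 lower) and under quantile normalization (4003 and 4171). The same held without Biotin-positive replicate 1 (3583 and 3808), 2 (3654 and 3726) or 3 (3700 and 3733). The minimum of 3 libraries was kept with a library left out. Without a Biotin-positive library, genes reaching 1 FPKM only in that group were thus not tested. Likewise, genes reaching 1 FPKM only in the Biotin-negative group were not tested without a Biotin-negative library. The part of this filter in the balances was not tested. With a library left out the ratios ran from 2.49 to 2.55 for summed alpha- and from 1.83 to 1.88 for summed beta-tubulin, and from 0.474 to 0.493 for stathmin per tubulin. The shift in the share of Tuba1a ran from 0.042 without Biotin-positive replicate 2 to 0.934 without Biotin-positive replicate 1, and was 0.782 without Biotin-negative replicate 1 and 0.229 without Biotin-negative replicate 3. That of Tuba1c ran from -0.20 to 0.77 percentage points, so its sign rests on single libraries; it was negative without Biotin-negative replicate 1 (-0.20) and without Biotin-positive replicate 1 (-0.0358), 0.77 without Biotin-negative replicate 3 and 0.56 without Biotin-positive replicate 2. Nothing in the sources used here tells whether same-numbered libraries were paired. Their deviations from the group means correlated at 0.0371, 0.012 and 0.0143 across genes, which cannot show whether they came from the same culture. With the replicate block 4113 genes were higher and 3927 lower, Stmn1 had an adjusted p = 0.119 in limma, and no call of the 10 genes changed. With an unknown depth, the precision of a low value such as that of Tubb3 rests on 3 libraries alone.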

Other observations

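Map2, a microtubule-associated protein gene best known from neuronal dendrites, was, like Tubb3, at 0 in the table for Biotin-negative replicates 1, 2 and 3, and stood at 1.58, 1.67 and 1.61 FPKM in Biotin-positive cells. Its relative Mapt, the gene of tau, reached at most 0.0222 FPKM in any library. Both were picked with their values known.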
